A study of Mus musculus with 4 samples.

Results

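The genes described here are 9 mouse histone acetyltransferases and acetyltransferase coactivators, Kat2a, Kat2b, Ep300, Crebbp, Kat5, Ncoa1, Ncoa2, Ncoa3 and Hat1. They were taken as every non-control probe that carries one of these gene names in the scanner files, which gave 16 probes for the 9 genes, of 39429 probes on the array. The list was chosen by the enzymes' role with the deposited mutant over control log2 ratios of these arrays already known, and Kat2b was selected on its ratio being below 0 on all 4 arrays. Those ratios therefore describe the members, and no test is read from them. The microdissected hearts were from mouse embryos at embryonic day 9.5 on a mixed CD1/B6/129 background. The mutant hearts were Nkx2.5Cre; Hdac3f/f, in which a Cre recombinase driven from Nkx2.5, a gene of cardiac progenitors, acts on a floxed Hdac3, and the control hearts were Hdac3f/f littermates. Both genotypes carry the floxed allele, and the labels name Cre for the mutants only, so loss of Hdac3 and presence of Cre cannot be told apart. Each of the 4 two-colour arrays paired a pool of 3 mutant hearts with a pool of 3 control hearts (n = 4 pairs). In RNA from whole hearts, fewer cells of a type and less RNA per cell cannot be told apart.

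Histone acetyltransferases move an acetyl group from acetyl-CoA onto lysines of histone tails, a mark of open and active chromatin, and deacetylases such as Hdac3, the catalytic subunit of the NCoR/SMRT corepressor, take it off. Kat2a (GCN5) and Kat2b (PCAF) are paralogs that take the same catalytic place in the SAGA and ATAC complexes. Ep300 and Crebbp encode p300 and CBP, which acetylate histones at enhancers and are bound by many cardiac transcription factors, Kat5 (TIP60) is the catalytic subunit of the NuA4 complex, Ncoa1 to Ncoa3 encode the p160 coactivators that bring p300 and CBP to nuclear receptors, and Hat1 acetylates newly made histone H4 before it reaches chromatin.

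The probes are 60 bases long, and their coordinates are those of the array design in mm9. The files place each probe on a transcript but give no exon or UTR annotation. Kat2b, on which most of the description turns, was read by 1 probe (A_51_P257762, chr17:53811093-53811152, plus strand), of which the first 30 bases are shown. The other sequences are the more upstream probes of genes that had 2 or 3 probes, shown because the probes of one gene did not read alike. Capitals mark the stop codon in Kat2a and Kat5 and each CAG triplet in Crebbp.
Kat2b A_51_P257762, bases 1 to 30: caccagtgtctatgtgaacatttcccattt
Kat2a A_55_P2049602: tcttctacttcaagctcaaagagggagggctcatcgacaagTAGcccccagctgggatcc
Kat5 A_55_P1996329: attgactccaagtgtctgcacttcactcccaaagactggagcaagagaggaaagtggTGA
Crebbp A_55_P1965836: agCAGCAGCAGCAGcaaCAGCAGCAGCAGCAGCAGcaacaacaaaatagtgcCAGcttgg
Hat1 A_51_P369636: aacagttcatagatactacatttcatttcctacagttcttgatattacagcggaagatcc
Ncoa1 A_66_P126138: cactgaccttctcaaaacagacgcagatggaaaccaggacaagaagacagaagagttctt
Ncoa3 A_55_P2071868: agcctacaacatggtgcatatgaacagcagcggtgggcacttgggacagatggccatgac
The Kat2a probe lies at chr11:100566536-100566595 (minus strand), the Kat5 probe at chr19:5603418-5603477 (minus) and the Crebbp probe at chr16:4084710-4084769 (minus). The Hat1 probe is given as chr2:71259747-71272121 (plus) and the Ncoa1 probe as chr12:4249868-4253693 (minus), spans far longer than the probe, so each crosses at least 1 exon junction. The Ncoa3 probe lies at chr2:165895353-165895412 (plus). The Crebbp probe holds 11 CAG triplets, and 3 of the 39429 probes, itself included, hold at least that many.

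The direction of every ratio rests on the column names of the authors' deposited table and is not settled. The labels put mutant RNA in Cy5 on all 4 arrays, but the deposited columns, named mutant against wild type, follow the scanner ratio of Cy5 over Cy3 on arrays 1 and 2 (slopes 1.01 and 1.01 over bright probes) and its opposite on arrays 3 and 4 (slopes -1.01 and -1.01). Over the 25456 probes kept, those above background throughout in at least 1 of the genotypes, the deposited columns correlated at 0.538 for arrays 1 and 2, 0.421 for arrays 3 and 4 and -0.302 for arrays 1 and 4, as a description across probes that share arrays and dyes. The scanner ratios of Cy5 over Cy3 correlated at 0.434, 0.390 and 0.253 for the same pairs. Array 3 correlated with arrays 1 and 2 at 0.0861 and 0.0326 in the deposited columns and at -0.065 and -0.0086 in the scanner ratios. Array 3 stood apart, with a spread of ratios of 0.435 (SD over probes, log2), against 0.209, 0.228 and 0.254 on arrays 1, 2 and 4. Values below are log2 ratios of mutant over control hearts with the deposited signs, and the mean with all arrays read as labelled is given beside the main ones. In each channel 66.6% to 71.2% of probes were well above background, and all 16 member probes were so on all 4 arrays in both channels. The number of arrays limits the precision.

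Hdac3, the targeted gene, had log2 ratios of -0.22, -0.50, -0.52 and -1.15 on arrays 1 to 4 and a mean of -0.60 ± 0.39 (SD, n = 4; limma, adjusted p = 0.579). As labelled its mean was 0.24, so the sign of the targeted gene turns with the reading of arrays 3 and 4. The sources do not place its single probe relative to the floxed part.

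Kat2b had the mean farthest from 0 of all 16 probes. Its log2 ratios were -0.35, -0.47, -1.26 and -0.73 on arrays 1 to 4, with a mean of -0.70 ± 0.41 (SD, n = 4), a ratio of 0.615. All 4 arrays were below 0, array 3 by the most. The scanner's processed signals of this probe were 73.1, 70.7, 36.3 and 136 in mutant hearts and 99.7, 106, 132 and 248 in control hearts. They form the scanner's own ratios, given below, which differ in size from the deposited ones. The mutant signal was the smaller of the pair on each array, while the 2 sets overlap across arrays because arrays differ in brightness. As a rank among all probes of a channel, Kat2b lay at the 44.0th to 56.3rd percentile in mutant hearts and at the 57.3rd to 61.8th in control hearts. These 2 ranges do not overlap with the deposited signs, by which Kat2b was selected. The ranks come from the same spots as the ratios, and the share of all probes with such ranges was not counted. Nothing is therefore read from the gap. As labelled, the mean turned to 0.29 and the ranges overlapped, at the 54.0th to 61.8th percentile in mutant and the 44.0th to 57.9th in control hearts. Kat2b and Hdac3 were both below 0 on each array with the deposited signs, as were 10.2% of all probes on all 4 arrays. Kat2b was selected for that sign, and reading arrays as labelled turns both genes together. Nothing is read from their shared sign.

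**Figure D1:**
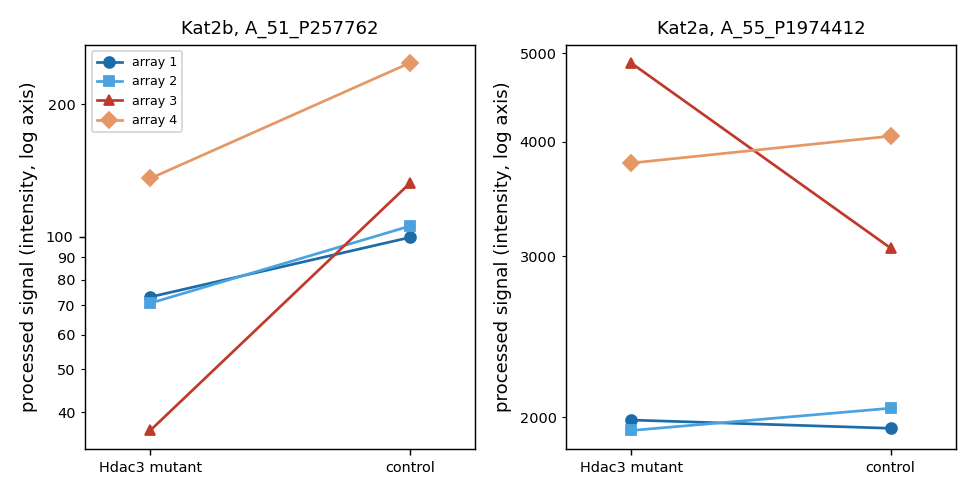
Processed signal (intensity, log axis, a separate axis per panel) of the Kat2b probe and of the brighter Kat2a probe in the mutant and control hearts of each array, with the dye of the mutant hearts taken from the deposited signs. All 4 Kat2b lines are lower in mutant hearts, with array 3 at 36.3 in mutant and 132 in control hearts, whereas the Kat2a lines run both ways.

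The size of the Kat2b difference depended on array 3 and on how its dim signal was treated. Without replicate 3 the mean was -0.52, and with weights that count array 3 least (0.275, against 3.42 for array 1) it was -0.46. Ratios recomputed from the scanner files with an offset of 50 were -0.27, -0.51, -0.75 and -0.66 (mean -0.55), and the scanner's own ratios, turned by the deposited signs, were -0.45, -0.58, -1.86 and -0.87 (mean -0.94). The software's error of the Kat2b ratio was 0.21, 0.21, 0.27 and 0.22 on the log2 scale. Array 3, with the faintest mutant signal, is where the treatments differ most.

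Markers of primitive red blood cells had mean ratios on the same side of 0 as Kat2b with the deposited signs. All 8 of 8 had a mean below 0, 4 of them on all 4 arrays, where the shares over all genes were 46.5% and 9.71%. Their medians were -0.08, -0.65, -0.61 and -0.40 on arrays 1 to 4. Their summed processed signal ran from 222270 to 362010 in mutant hearts and from 331240 to 461900 in control hearts. As labelled, 4 of the 8 were below 0 and 4 above, and the sums ran from 265600 to 409100 in mutant and from 222270 to 461900 in control hearts. Epicardial markers had 5 of 5 means below 0, with summed signals of 3320 to 5230 in mutant and 4139 to 5247 in control hearts. Of 6 liver and foregut endoderm markers 4 were kept, all with a mean above 0, and Apoa1 was not well above background on any array. The signals of the 6 summed to 149 to 332 in mutant and 85.1 to 141 in control hearts. The 8 myocardial markers, all well above background, had 4 means below 0 and 4 above, and their median was above 0 on arrays 1 and 2 (0.16 and 0.34) and below it on arrays 3 and 4 (-0.11 and -0.40). The 7 endocardial and endothelial markers had 3 means below 0 and 4 above, with the deposited signs and as labelled. As labelled, 2 of the 5 epicardial means, 1 of the 4 endoderm means and 0 of the 8 myocardial means were below 0. The endoderm sums then overlapped, at 129 to 332 in mutant and 85.1 to 175 in control hearts. The part of these cell types in the Kat2b ratios was not tested. For replicates 2 to 4 the description field speaks of embryonic stem cells, while title, source and genotype speak of hearts. Of 4 stem cell markers, Pou5f1 was not well above background on any array, and Nanog, Zfp42 and Esrrb were so on all 4 in both channels. With the deposited signs, the signals of the 4 summed to 459 to 743 in mutant and 461 to 961 in control hearts. Those of the 8 myocardial markers summed to 549390 to 802120 and 499730 to 784650.

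Kat2a, the paralog of Kat2b, was read by 2 probes that differed in sign. The brighter probe (A_55_P1974412, chr11:100566069-100566128, minus strand) had log2 ratios of 0.04, -0.08, 0.68 and -0.10, a mean of 0.13 ± 0.37 (SD, n = 4), with array 3 high and the other arrays near 0. The probe with the stop codon shown above had -0.17, -0.13, -0.06 and -0.35, a mean of -0.18 ± 0.12 (SD, n = 4), below 0 on all 4 arrays. On array 3 the Kat2b ratio was -1.26 where the brighter Kat2a probe read 0.68, the widest gap between the paralogs on any array. The stop codon probe was dimmer, at the 52.2nd to 58.1st percentile in mutant and the 53.6th to 60.4th in control hearts, against 84.8th to 89.0th and 85.3rd to 87.0th for the brighter one.

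Ep300 and Crebbp, the genes of p300 and CBP, lay near 0 and on both sides of it. The Ep300 probe (chr15:81481567-81481626, plus strand) had log2 ratios of -0.07, 0.14, 0.44 and -0.19, a mean of 0.08 ± 0.28 (SD, n = 4). The Crebbp probe with the CAG run had 0.33, 0.22, -0.11 and -0.09, above 0 on arrays 1 and 2 and below it on arrays 3 and 4, with a mean of 0.09 ± 0.22 (SD, n = 4). Read as labelled, this Crebbp probe is above 0 on all 4 arrays, with a mean of 0.19. The other Crebbp probe, designed to another transcript record (chr16:4082201-4082260, minus strand), was the faintest of the 16, at the 38.9th to 44.9th percentile in mutant and the 39.8th to 46.2nd in control hearts, and its ratios were -0.18, -0.27, -0.38 and 0.34. The first Crebbp probe minus this one was 0.50, 0.49, 0.27 and -0.43 on arrays 1 to 4, the smallest gap being on array 3.

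Kat5, the catalytic subunit of NuA4, had small differences outside array 3. The probe that ends on the stop codon had log2 ratios of -0.12, -0.17, 0.14 and 0.10, a mean of -0.01 ± 0.16 (SD, n = 4). The probe further towards the 3′ end (A_55_P2017714, chr19:5603017-5603076, minus strand) had -0.06, -0.04, 0.56 and 0.09, with a mean of 0.14 ± 0.29 (SD, n = 4). Both Kat5 probes were below 0 on arrays 1 and 2 and above 0 on arrays 3 and 4, so both read below 0 on all arrays as labelled.

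Among the p160 coactivators, the 3 probes of Ncoa1 all had a mean below 0. The junction probe shown above had log2 ratios of -0.12, -0.00, -0.58 and -0.42, a mean of -0.28 ± 0.27 (SD, n = 4). The brightest Ncoa1 probe (A_55_P2130975, chr12:4249455-4249514, minus strand) had -0.10, -0.12, -0.17 and -0.32, a mean of -0.18 ± 0.10 (SD, n = 4). Both were below 0 on all 4 arrays, and the third probe (A_66_P130582, chr12:4247469-4247528, minus strand) was nearer 0, at 0.02, 0.01, -0.07 and -0.16. As labelled, the means of the 3 probes were 0.22, 0.07 and 0.07. Ncoa2 (chr1:13129343-13129402, minus strand) had ratios of 0.07, 0.03, -0.67 and -0.27, a mean of -0.21 ± 0.34 (SD, n = 4), just above 0 on arrays 1 and 2 and below it on arrays 3 and 4.

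Ncoa3 had a mean above 0 on one of its probes and below 0 on the other. The probe nearer the 3′ end (A_55_P2183750, chr2:165898682-165898741, plus strand) had log2 ratios of 0.13, -0.10, 0.90 and 0.08, a mean of 0.25 ± 0.44 (SD, n = 4), which was 0.03 without replicate 3 and -0.24 as labelled. The upstream probe had -0.00, -0.16, -0.31 and 0.06, a mean of -0.10 ± 0.17 (SD, n = 4). The 2 probes lay far apart on opposite sides of 0 on array 3, and within 0.13 of each other on the other arrays.

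Hat1, the enzyme for newly made histone H4, had 2 probes that lay on opposite sides of 0 on every array. The junction probe had log2 ratios of -0.11, -0.03, -1.02 and -0.15, a mean of -0.33 ± 0.46 (SD, n = 4), below 0 on all arrays. The probe nearer the 3′ end (A_55_P2111033, chr2:71279573-71279632, plus strand) had 0.09, 0.10, 0.28 and 0.08, a mean of 0.14 ± 0.10 (SD, n = 4), above 0 on all arrays. Without replicate 3 the means were -0.09 and 0.09. Hat1 therefore has no single direction here.

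**Figure D2:**
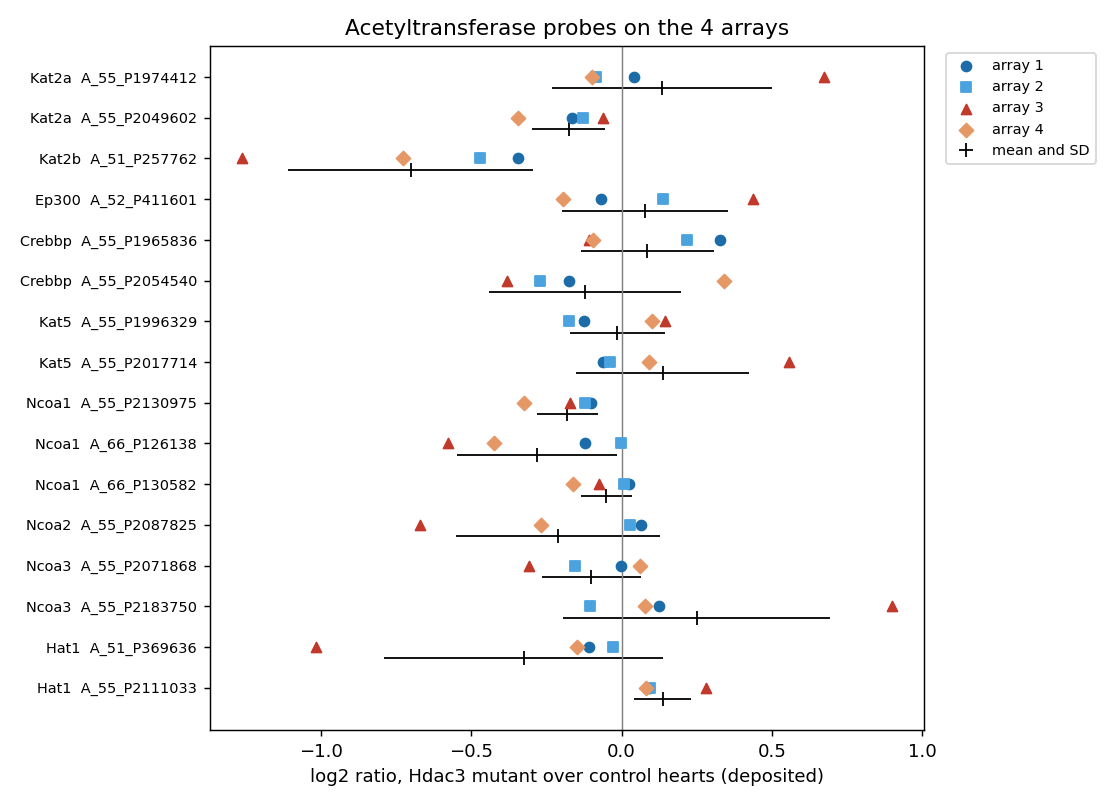
Deposited log2 ratio of mutant over control hearts for each of the 16 probes, with 1 symbol per array and, under them, the mean with its SD over the 4 arrays. The Kat2b symbols lie from -1.26 to -0.35, and the array 3 symbol lies farthest from 0 in 11 of the 16 probes.

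Over the 16 probes, the means ran from -0.70 to 0.25 with a median of -0.08, 10 below 0 and 6 above, where 48.1% of all probes were below 0. As labelled, they ran from -0.24 to 0.29 with a median of 0.03, 7 below 0 and 9 above, where 50% of all probes were below 0. With 1 probe a gene, the brightest, 4 of 9 genes had a mean below 0 and their median was 0.08, against 0.01 over 19597 genes. In the fit over all 25456 probes 0 of the 16 probes had an adjusted p below 0.05 (limma, with Benjamini-Hochberg adjustment), as had 0% of all probes. The smallest adjusted p of any probe was 0.325, and 929 probes higher and 1243 lower had an unadjusted p below 0.05. A p that misses the threshold does not show that levels were alike. Below 0 on all 4 arrays were 5 of the 16 probes, those of Kat2b, Kat2a with the stop codon, 2 of Ncoa1 and the junction probe of Hat1, where the share over all probes was 10.2%. Above 0 on all 4 arrays was 1 probe, of Hat1, where that share was 9.64%. The rule used these ratios, so nothing is read from these counts.

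The median distance of the 16 ratios from 0 was 0.11, 0.11, 0.41 and 0.15 on arrays 1 to 4. Of the 6 genes with several probes, 5 allow a comparison along one transcript. Kat2a, Kat5, Ncoa1, Ncoa3 and Hat1 each had 2 or more probes to one RefSeq transcript, at least 100 bases apart, and the difference between the probe nearest the 3′ end and the most upstream one was taken within each array. This difference in log2 ratio was widest on array 3 for each of the 5, where it was 1.30 for Hat1, 1.21 for Ncoa3, 0.74 for Kat2a, 0.51 for Ncoa1 and 0.41 for Kat5. With the deposited signs, all 5 of 5 were above 0 on arrays 1, 2 and 3 and 4 of 5 on array 4. The share above 0 over 3015 transcripts with such pairs was 55.2%, 56.2%, 54.5% and 47.7% on arrays 1 to 4. As labelled, every difference on arrays 3 and 4 takes the opposite sign, so the 5 genes do not keep 1 direction across arrays. On arrays 1, 2 and 4 the largest of the 5 was 0.21, 0.14 and 0.26. Over all 3015 transcripts the median difference was 0.03, 0.03, 0.06 and -0.02, with an interquartile range of 0.687 on array 3 and 0.260, 0.271 and 0.355 on the other arrays. The order along the transcript comes from genome coordinates, and RNA quality was not measured, so its part in these differences was not tested.

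**Figure D3:**
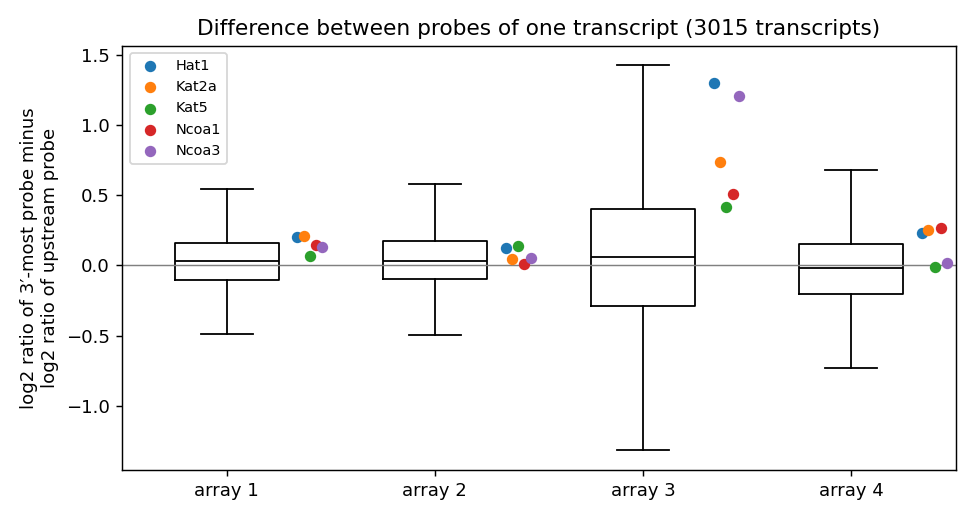
Difference in log2 ratio (mutant over control) between the probe nearest the 3′ end and the most upstream probe of a transcript, on each array. Boxes give the median and quartiles of 3015 transcripts, with outlying transcripts beyond the whiskers not drawn, and coloured points are 5 acetyltransferases, which reach 1.30 for Hat1 and 1.21 for Ncoa3 on array 3.

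The probes were also compared by sequence. The letters AATAAA, the usual polyadenylation signal, searched on the probe strand, were in 4 of the 16 probes, the ones nearer the 3′ end of Kat2a, Kat5, Ncoa3 and Hat1. With the deposited signs, those 4 read 0.68, 0.56, 0.90 and 0.28 on array 3, all above 0, while 10 of the other 12 were below 0 there. The 4 are the 3′ probes of the pairs above, so this is not a second observation. The share of all probes without AATAAA below 0 on array 3 was not counted, and as labelled all array 3 signs turn. Over all probes the median on array 3 was 0.08 for the 3581 with AATAAA and -0.02 for the 20734 without it or ATTAAA, a much smaller gap. The same medians were 0.013 and -0.009 on array 1, 0.003 and -0.003 on array 2, and 0.043 and -0.003 on array 4. Probe base composition moved with the ratios of array 3 and, less, of array 4, with the deposited signs. On array 3 the median ratio was -0.04 for the 425 probes of 30% G and C or less and 0.31 for the 133 above 60%. On array 4 these medians were -0.035 and 0.145, on array 1 -0.004 and 0.065, and on array 2 0.005 and 0.014. The part of base composition in the members' ratios was not tested. The Kat2b probe has 43.3% G and C and no AATAAA, and no second probe of Kat2b was there to compare.

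Genes whose 4 ratios lay nearest to those of Kat2b were found by the root mean square difference over the 4 arrays, among 19596 other genes. The nearest was Trib2, a pseudokinase, at 0.111, with ratios of -0.34, -0.56, -1.06 and -0.75. Fam189a2 (0.117), Calcr, the calcitonin receptor (0.147), and Slbp, the binding protein of the histone mRNA stem-loop (0.151), were also among the 5 nearest. Slbp had a second probe that read alike, with means of -0.62 and -0.62, whereas the second Trib2 probe had a mean of -0.23 against -0.68 for the first. Within a difference of 0.3 there were 74 genes, and 13 genes had a mean at or below that of Kat2b with the deposited signs. As labelled, the means of the 5 nearest genes lay between 0.19 and 0.31. That they turned with Kat2b follows from their choice by ratios near those of Kat2b. As labelled, 898 genes had a mean at or above that of Kat2b.

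The partners of the acetyltransferases gave no call, with 0 genes past the threshold in each list and 0% of all genes (limma, adjusted p). The subunits of SAGA and ATAC, which hold Kat2a and Kat2b, had 15 of 23 means below 0 and 8 above, with a median of -0.03, against 46.5% of all genes below 0. As labelled the balance turned, to 8 of 23 below 0 and 15 above with a median of 0.05, against 50% of all genes below 0. Usp22, the deubiquitinase of SAGA, had a mean of -0.44 ± 0.64 (SD, n = 4), with array 4 at 0.30, Dr1 had -0.37 ± 0.51 (SD, n = 4), Supt3 -0.26 ± 0.22 (SD, n = 4) and Tada1 -0.24 ± 0.24 (SD, n = 4). Of these, Supt3 was below 0 on all 4 arrays. Their array 3 values were -1.26, -1.07, -0.56 and -0.57, each the farthest from 0 of its gene.

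The NuA4 subunits around Kat5 had 7 of 17 means below 0 and 10 above, with a median of 0.01, and as labelled 6 of 17 below 0 and 0.06. The 4 named next were taken by smallest unadjusted p, and all 4 are of those below 0. Actl6a, an actin-related subunit it shares with chromatin remodellers, had log2 ratios of -0.16, -0.10, -0.62 and -0.19 (mean -0.27), and Mrgbp had -0.11, -0.13, -0.43 and -0.29 (mean -0.24), both below 0 on all arrays. Yeats4, a reader subunit, had a mean of -0.24 with array 4 at 0.10, and Brd8, a bromodomain subunit, had -0.14 (-0.03 on its other probe). The Hat1 partners and histone chaperones had 4 of 6 means below 0, with a median of -0.09, and as labelled 5 of 6 and -0.08. Rbbp7, the histone-binding partner of Hat1, had -0.08 on its brightest probe and -0.37 on another, Asf1a -0.29, Asf1b -0.16 and Rbbp4 0.08.

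Partners of p300/CBP and nuclear receptor coactivators had 6 of 14 means below 0 and a median of 0.02, and as labelled 11 of 14 and -0.05. Cited2, a protein that binds p300 and CBP and is needed for heart formation in mice, stood highest in the 8 lists with the deposited signs, with log2 ratios of 0.25, 0.74, 0.83 and 0.23, a mean of 0.51 ± 0.32 (SD, n = 4; limma, adjusted p = 0.579). It was above 0 on all 4 arrays, its other probe had a mean of 0.30, and as labelled its mean was -0.02. Ppargc1a had a mean of 0.15 (0.04 on its other probe) and Ncoa4 -0.14. Med1, a Mediator subunit, had -0.11 on the brightest of its 4 probes, with 0.01 and 0.01 among the others. Histone acetyltransferases outside the 9, 11 genes, had 5 means below 0 and a median of 0.05 (5 and 0.01 as labelled), with Kat6b at 0.22 (0.29 on its other probe), Gtf3c4 at 0.19, Nat10 at 0.10 and Clock at -0.12.

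The supply of acetyl-CoA, the donor of the acetyl group, had the lowest median of the 8 lists with the deposited signs, at -0.12, with 9 of 12 means below 0 and 5 of 12 genes below 0 on all 4 arrays, where the share over all genes was 9.71%. The list medians were -0.10, -0.18, -0.14 and -0.12 on arrays 1 to 4, with little spread between arrays. Acss1, the mitochondrial acetyl-CoA synthetase, had a mean of -0.41 ± 0.31 (SD, n = 4). The pyruvate dehydrogenase subunits Dld, Pdha1 and Dlat had -0.33 ± 0.28, -0.30 ± 0.23 and -0.18 ± 0.10 (SD, n = 4). Adjusted p-values of the 4 were 0.579 each (limma), and as labelled 4 of 12 means were below 0 and the list median was 0.04.

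Acetyl-lysine readers, the bromodomain and related proteins that bind the mark, had 6 of 16 means below 0 and a median of 0.05, and as labelled 8 of 16 and -0.00. Cecr2 had a mean of -0.22 on its brightest probe and 0.11 and -0.10 on others, Brd2 0.20 with -0.06 on another, Brd1 0.12 and Brpf3 -0.12. Among the class I deacetylases and the corepressor of Hdac3, 5 of 9 means were below 0 and the median was -0.08, and as labelled 3 of 9 and 0.03. Hdac2, a class I deacetylase of other complexes, had log2 ratios of -0.27, -0.04, -0.36 and -0.55, and the corepressor subunit Tbl1x had 0.19, 0.25, 0.58 and 0.28. Tbl1xr1, its close relative, had a mean of 0.25, with array 4 below 0.

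**Figure D4:**
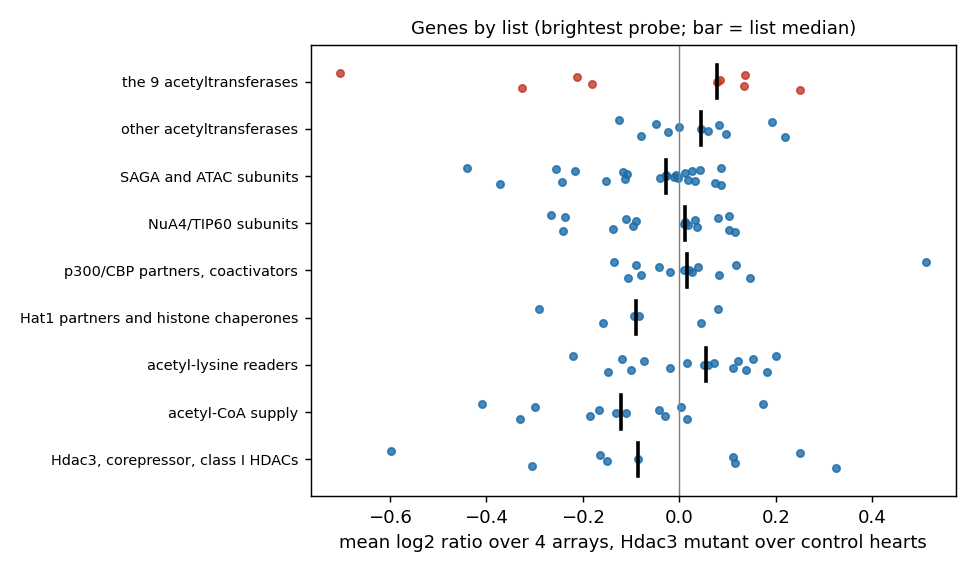
Mean log2 ratio over the 4 arrays of each gene by its brightest probe, in the 8 lists of partner genes and in the 9 acetyltransferases (top row), with the list median as a bar. Kat2b lies at -0.70 and Cited2 at 0.51, and the medians run from -0.12 to 0.08.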

How the data were processed

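Each scanner file holds, per the file headers, mean, background and processed intensity of every spot in Cy3 and Cy5 and the log10 of Cy5 over Cy3. The headers name Feature Extraction 11.5.1.1 as the software, and the submitters' processing notes give 8.5.1.1. The authors deposited a table of log2 ratios named mutant against wild type, with no statement of how it was normalized. On bright probes (both mean signals above 2000) it followed loess-normalized scanner ratios, so its base is 2. Column medians were -0.027, -0.017, 0.021 and 0.025. Rows were matched by probe name (43173 rows, 153 of controls) and averaged by probe.

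The deposited ratios were tested against 0 with limma 3.58.1 (R 4.3.3, lmFit and eBayes) and Benjamini-Hochberg adjustment over the 25456 of 39429 probes with 4 values whose mutant channel, or whose control channel, was well above background every time. A gene was its brightest probe. Of the probes, 27508 were named by accession and 404 by an older symbol through RefSeq genes of GRCm38.p6. The rule named all member probes, Hdac3, the 4 genes of smallest p in each list and the 5 genes nearest to Kat2b, of which 1 is not reported here. Members, lists and tests were chosen with earlier results of these data known. The recomputed ratios used normexp (offset 50) and loess. Labels call the pairs biological replicates. The fit was tested on simulated data.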

Additional observations from a re-analysis of the deposited data

Results flagged for a closer look

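Of 25 sets of 4 values (16 probes, Hdac3 and 8 list medians), 3 held a value far from the other arrays. Chance gives about 1 in 20 for separate sets with equal spread on all arrays. Array 3 had a wider spread of ratios than the others, and probes of one gene are not separate, so that rate cannot serve as a yardstick here. The Hat1 junction probe read -1.02 on array 3, and the Hat1 probe nearer the 3′ end read 0.28 on array 3, the opposite way. The median of the acetyltransferases outside the 9 was -0.08 (-0.077) on array 4.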

How the results depend on the processing

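None of the 16 probes passed the threshold under any setting tried. The Kat2b mean lay between -0.94 and -0.46 with the deposited signs, and between -0.82 and -0.52 when each replicate was left out. It turned to 0.294 with the deposited ratios read as labelled, an alternative added after seeing the data, and to 0.156 with loess ratios so read. Over all probes, 86 were called higher and 6 lower with loess ratios as labelled, 12 and 0 with deposited ratios as labelled, 3 and 2 with array weights, and 0 to 4 higher and 0 lower when each replicate was left out, the 4 without replicate 1. Of the recomputed values, 328 moved by less than their spread or count limit and 40 by more, mostly in the readings as labelled. The test of each array's ratio against 0 is itself the paired analysis, since each array holds a pair, and no further block was fitted. The Kat2b ratio differed most between treatments on array 3, where its mutant signal was 36.3, and the cause was not tested.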
